A study of Drosophila melanogaster with 10 samples.

Results

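Odorant binding proteins are encoded in Drosophila melanogaster by the Obp genes. They were chosen here as every gene of the deposited table whose name begins with Obp, a number and a letter, which gave 34 of 11621 genes. The data are RNA sequencing of brains from male w1118 flies, a laboratory line with white eyes that the labels call wild-type, at 4 to 7 days of age. The diets were HPLC, high in protein and low in carbohydrates (1 part protein to 2 parts carbohydrate), and LPHC, low in protein and high in carbohydrates (0 parts protein to 1 part carbohydrate). Both held 360 g per L, and each had 5 libraries. The series design describes HPLC as a diet that raised, and LPHC as one that lowered, the taste response of flies to sucrose, and the question here is which Obp transcripts of the brain differ between them. How many brains went into a library, and whether replicates were reared apart, is not stated, so p-values describe the spread between libraries and part of it may be technical.

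Odorant binding proteins are small, secreted, soluble proteins that hold hydrophobic molecules in a pocket. Support cells of smell and taste hairs secrete many of them into the fluid that bathes the endings of sensory neurons, where they carry or buffer odorants and tastants. Other members are made outside sensory hairs, among them in the fat body, in glia and in glands of the male. A Minus-C class, which includes Obp8a, Obp44a and Obp99a to Obp99d, lacks a pair of the cysteines that hold the typical fold together.

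Total reads ran from 19834344 to 38402635 per library. A value is a normalised read count, that is reads divided by a size factor of the library, and 3 reads came to between 2.09 and 4.19 normalised counts. As a check of the tissue, the 14 neuron markers summed to between 195990 and 228323 on HPLC and between 221690 and 267414 on LPHC, with none at 0. The libraries also held RNA of other cells: 15 photoreceptor markers took 8.63% to 10.7% of reads on HPLC and 11.6% to 12.8% on LPHC. In such bulk samples, fewer cells of a type and less RNA per cell cannot be told apart.

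More Obp transcripts were higher than lower on HPLC. Of the 34 genes, 27 had a mean of at least 10 normalised counts over the 10 libraries and were tested, and all 27 reached that mean in both diets. The limma test across all 9896 genes that passed this filter called 17 Obp genes higher and 1 lower at an adjusted p under 0.05. Over all genes tested, 40.9% were called, 22.1% higher and 18.9% lower. The median log2 fold change (HPLC minus LPHC) of the tested Obp genes was 0.61, from −0.62 for Obp69a to 4.21 for Obp99b, against a median of −0.03 over all genes tested. In 7 Obp genes the rise was at least 2-fold, and 6.41% of all genes were called higher by that much. The HPLC and LPHC libraries did not overlap in 14 of the 27, each time with HPLC above. Over all genes tested, 29.2% did not overlap, 17.4% with HPLC above and 11.7% with HPLC below. Fold changes are differences of mean log2(value + 1), and errors beside them are standard errors (SE). The added 1 shrinks the change of a gene near 0, and where libraries of a diet are uneven the mean of the logs can lie far from the log of the mean.

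**Figure D1:**
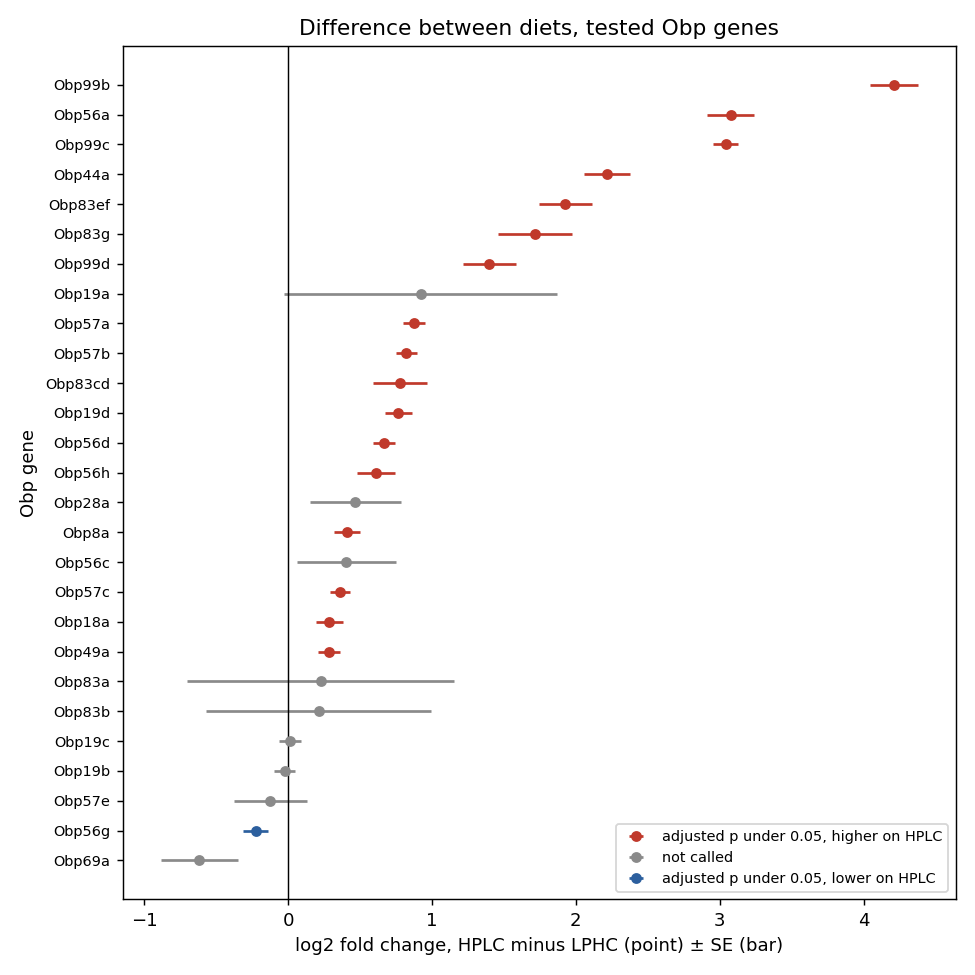
Log2 fold change, HPLC minus LPHC, of the 27 tested Obp genes, with bars of 1 SE. Red points were called higher on HPLC, the blue point (Obp56g) lower, and grey points were not called; Obp99b, Obp56a and Obp99c lie above 3 and the wide grey bars belong to Obp19a, Obp83a and Obp83b.

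Obp99b had the largest rise. This gene is known to be active in the fat body of the fly head. Its normalised counts were 2723, 2923, 3609, 3663 and 4024 in the HPLC libraries, against 161, 179, 166, 146 and 273 in the LPHC libraries. Every HPLC library lay above every LPHC library, and LPHC replicate 5 stood above the other LPHC libraries. The log2 fold change was 4.21 ± 0.17 (limma adjusted p = 1.29e-09), an 18.3-fold ratio of the means.

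Obp99c, of the same chromosome arm (3R) and gene cluster, was the most abundant of the strongly raised members after Obp44a. It had 11483, 9106, 12434, 10472 and 12896 normalised counts on HPLC and 1360, 1343, 1246, 1304 and 1551 on LPHC. The spread within each diet was small beside the gap between the diets, and the log2 fold change was 3.04 ± 0.09 (limma adjusted p = 3.14e-14). Obp99d, the nearest Obp neighbour of Obp99b, had 377, 294, 406, 203 and 301 on HPLC and 132, 133, 78.2, 119 and 129 on LPHC. Its groups did not overlap either, with a smaller log2 fold change of 1.40 ± 0.19 (limma adjusted p = 3.12e-05). Obp99a, the remaining gene of the cluster, was read too rarely for the test, at 4.08 to 13.1 on HPLC and 0 to 4.19 on LPHC, values of a few reads.

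Markers of other tissues moved with the diet beside these genes. Of 14 fat body markers in the table, a list without any Obp gene, 11 were tested. All 11 were called higher, with a median log2 fold change of 2.60. Of these 11, Lsp2 and fit reached the minimum mean for the test on HPLC only (9177 and 194, against 3.25 and 2.60 on LPHC). The untested Lsp1gamma, Fbp1 and Fbp2 averaged 2.15, 7.93 and 1.19 on HPLC and 3.05, 11.4 and 1.87 on LPHC. These lay the other way, at low values with overlapping ranges. The sum of the 14 markers ran from 91996 to 119396 normalised counts on HPLC and from 15418 to 21891 on LPHC. Lsp1beta, a storage protein of the haemolymph made by fat body, averaged 6713 ± 882 on HPLC and 76.9 ± 13.9 on LPHC (SD, n = 5 each; log2 fold change 6.44 ± 0.12, limma adjusted p = 8.57e-15). Lsd-1, a lipid droplet protein, averaged 4332 ± 572 on HPLC and 712 ± 56.3 on LPHC (2.60 ± 0.08, limma adjusted p = 1.41e-13). Haemocyte markers were called higher in 8 of 14 (13 when libraries were scaled on the neuron markers, here called neuron-marker scaling). Their sums were 41803 to 48088 on HPLC and 16030 to 32818 on LPHC. Among them Glt rose the most, averaging 10028.5 on HPLC and 911.3 on LPHC (3.47 ± 0.11, limma adjusted p = 3.83e-12). The sums averaged 45259 on HPLC and 26812 on LPHC, so Glt alone made up a large part of their difference. Whether the listed genes mark only haemocytes in these samples was not tested. Hml, NimC2, Pxn, crq, Ppn and PPO2 were not called (limma adjusted p from 0.0548 to 0.394). The part of fat body and haemocyte RNA in the rises of Obp99b, Obp99c, Obp56a and the other members was not tested. Of 7 genes known from the support cells of sensory hairs, none was called higher and 3 were called lower, with sums of 18084 to 24832 on HPLC and 23592 to 30201 on LPHC. These sums mainly follow pros, which made up 18648 of a mean sum of 21968 on HPLC and 22246 of 25967 on LPHC. Under neuron-marker scaling 1 of the 7 was called higher and none lower. Of 9 muscle genes none was called higher and 5 were called lower (2 under neuron-marker scaling).

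Obp44a, a fatty acid binding protein known from glia of the fly brain, rose the most in absolute counts. It had 17131, 26094, 29423, 32453 and 23806 normalised counts on HPLC, against 5300, 6408, 4328, 5188 and 6185 on LPHC. The lowest HPLC library, replicate 1, still lay well above the highest LPHC library. The log2 fold change was 2.21 ± 0.16 (limma adjusted p = 1.54e-07). Markers of glia moved by less: 7 of 12 tested were called higher and none lower (2 under upper-quartile scaling and 4 under quantile normalization), and their sum ran from 74367 to 87603 on HPLC and from 65842 to 72450 on LPHC. Of these markers, repo, the transcription factor that defines glia, had a log2 fold change of −0.03 ± 0.07 (limma adjusted p = 0.758). Also not called were nrv2, moody, alrm and Gat, at 0.10, −0.008, 0.25 and 0.30 (limma adjusted p = 0.233, 0.937, 0.648 and 0.143). Indy had the largest rise of the listed markers at 0.78 ± 0.06 (limma adjusted p = 4.81e-09). In the annotation, Obp44a shares part of its exons with Pabp2 on the opposite strand, and the strand setting of the counting is not given. Pabp2 itself had 944 to 1141 on HPLC and 940 to 1255 on LPHC, far below Obp44a in every library.

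The remaining Minus-C gene tested, Obp8a, rose less, with 220 to 283 normalised counts on HPLC and 169 to 202 on LPHC (log2 fold change 0.41 ± 0.09, limma adjusted p = 0.00182). So 5 of 5 tested Minus-C genes were called higher, from 0.41 to 4.21 on the log2 scale. Of the other 22 tested members, 12 were called higher and 1 lower. This class was taken up after the values were seen, and the difference between it and the other members was not tested.

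The cluster of Obp56 genes on chromosome arm 2R moved in both directions. Obp56a had 173, 343, 325, 266 and 299 normalised counts on HPLC and 31.3, 32.7, 26.5, 35.4 and 32.7 on LPHC. The LPHC libraries lay close together, the HPLC libraries were more spread, and the log2 fold change was 3.08 ± 0.16 (limma adjusted p = 7.27e-11). Obp56d, which is much more abundant and known from smell and taste organs, had 11478, 13530, 15194, 12335 and 13767 on HPLC and 8798, 8790, 7405, 8031 and 8621 on LPHC. Here the groups did not overlap, at a log2 fold change of 0.67 ± 0.08 (limma adjusted p = 2.22e-06). Obp56h, which bears on male courtship, rose by 0.61 ± 0.13, with 456 to 781 on HPLC and 303 to 447 on LPHC (limma adjusted p = 0.00215).

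Obp56g was the 1 member called lower. It is also known from the male ejaculatory bulb, where it takes part in forming the mating plug. Its normalised counts were 7880, 8338, 9861, 7734 and 9320 on HPLC, against 10680, 10225, 8373, 10002 and 11160 on LPHC. The groups overlapped, since LPHC replicate 3 lay below HPLC replicates 3 and 5. The log2 fold change of −0.23 ± 0.08 (limma adjusted p = 0.0432) lost its call under TMM scaling (−0.21, adjusted p = 0.0614), under scaling on neuron markers (−0.09, adjusted p = 0.673), and when any of HPLC replicates 1, 2 and 4 or LPHC replicates 1, 2, 4 and 5 was left out (adjusted p up to 0.116). The 3 genes of the male accessory gland found in the table of 6 listed summed to 2.74 to 10.5 normalised counts on HPLC and 3.22 to 10.4 on LPHC, near the level of a few reads. They are not genes of the ejaculatory bulb, so they do not show whether RNA of the bulb was present. Obp56c was not called (log2 fold change 0.41 ± 0.35, limma adjusted p = 0.371), and the untested Obp56e and Obp56f stood at no more than 17.5 in any library.

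Of Obp49a, Obp19b and Obp57e, members known for roles in taste, only Obp49a was called. Obp49a, which binds bitter compounds in taste hairs of the labellum and lowers the response of sweet-sensing neurons to sugar mixed with them, had 3732, 4244, 4919, 4267 and 4168 normalised counts on HPLC. On LPHC it had 3524, 3606, 2980, 3752 and 3612. The groups touched, with HPLC replicate 1 below LPHC replicate 4, and the log2 fold change was 0.29 ± 0.08 (limma adjusted p = 0.00632). Under upper-quartile scaling, which lowers the median of all genes to −0.14, it was 0.17 and not called (adjusted p = 0.0558).

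Obp19b, which takes part in the taste of amino acids, had 1048, 985, 1264, 1041 and 1127 on HPLC and 1128, 1116, 971, 1111 and 1227 on LPHC. These groups lay on top of each other (log2 fold change −0.02 ± 0.07, limma adjusted p = 0.813). Obp57e, of taste hairs on the legs, was low at 21.4, 12.7, 30.6, 12.3 and 15.8 on HPLC and 22.9, 16.7, 20.9, 17.2 and 18.7 on LPHC. It was not called either (−0.12 ± 0.25, limma adjusted p = 0.729). Its partner gene Obp57d was not among the 34 genes found in the deposited table.

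Obp57a, Obp57b and Obp57c, neighbours on one strand of chromosome arm 2R, all rose. Obp57a had 1373, 1473, 1840, 1378 and 1370 normalised counts on HPLC and 869, 815, 761, 844 and 744 on LPHC, a log2 fold change of 0.87 ± 0.08 (limma adjusted p = 8.14e-08). Obp57b, which lies beside it, was at almost the same level, with 1324 to 1774 on HPLC and 783 to 892 on LPHC (0.82 ± 0.07, limma adjusted p = 7.76e-08). The recovered reads of both genes were equal in HPLC replicate 1, at 1347, and in HPLC replicate 4, at 1006. Obp57c, the next gene, was more abundant and rose less, with 5397 to 7098 on HPLC and 4203 to 4799 on LPHC (0.36 ± 0.07, limma adjusted p = 7.52e-04). In none of the 3 genes did the libraries of the diets overlap. The equal read counts were noticed after the values were seen.

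The Obp19 cluster on the X chromosome held the most abundant member and also members that were not called. Obp19d, also named PBPRP2 and known from antennae and taste organs, had 22624, 24974, 32635, 25575 and 26684 normalised counts on HPLC. On LPHC it had 16520, 17044, 12901, 15133 and 16027, so that the groups did not overlap (log2 fold change 0.77 ± 0.09, limma adjusted p = 4.49e-06). Its neighbour Obp19c was at nearly the same level on both diets, at 301 to 352 on HPLC and 282 to 353 on LPHC (0.01 ± 0.08, limma adjusted p = 0.902). Obp18a, elsewhere on the X chromosome, had 508 to 732 on HPLC and 456 to 517 on LPHC (0.29 ± 0.09, limma adjusted p = 0.0189). Its call was lost without HPLC replicate 5 (adjusted p = 0.0572), and under upper-quartile scaling (0.111) and quantile normalization (0.0990).

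The Obp83 genes on chromosome arm 3R were called in part. Obp83ef, a protein with a pair of odorant binding domains, had 95.8, 104, 145, 90.4 and 133 normalised counts on HPLC and 24.3, 34.8, 20.9, 38.6 and 28.0 on LPHC. Obp83g had 44.8, 42.2, 73.2, 41.1 and 59.0 on HPLC and 20.9, 23.2, 8.37, 12.9 and 13.1 on LPHC. Neither gene overlapped between the diets, with log2 fold changes of 1.93 ± 0.19 and 1.72 ± 0.26 (limma adjusted p = 2.15e-07 and 4.74e-05).

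Obp83cd, also a protein with a pair of such domains, rose by 0.78 ± 0.19 (limma adjusted p = 0.00448), with 129 to 210 on HPLC and 69.5 to 152 on LPHC. Obp83cd and Obp83ef overlap at their ends on opposite strands, so reads from that stretch may be counted for either.

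Obp83a and Obp83b, also named OS-F and OS-E, are carriers of the antenna, and their counts spread more within each diet than between the diet means. Obp83a had 116, 223, 275, 43.8 and 107 normalised counts on HPLC and 27.1, 26.9, 212, 218 and 437 on LPHC. Obp83b had 81.5, 157, 154, 37.0 and 57.9 on HPLC and 20.2, 26.9, 110, 119 and 274 on LPHC. For both genes the highest library was LPHC replicate 5 and the lowest were LPHC replicates 1 and 2, with HPLC replicate 4 the lowest of its diet. The highest LPHC library exceeded the lowest 16.3-fold for Obp83a and 13.6-fold for Obp83b. Neither was called, at log2 fold changes of 0.23 ± 0.93 and 0.21 ± 0.78 (limma adjusted p = 0.869 and 0.854), and the sign of both turned in edgeR (−0.20 and −0.11).

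Obp19a, also of the antenna, followed the same libraries at lower counts. It had 5.10, 22.8, 19.7, 4.11 and 12.6 on HPLC and 0.695, 0, 8.37, 11.8 and 41.0 on LPHC (log2 fold change 0.92 ± 0.95, limma adjusted p = 0.472). The diet means were 12.9 on HPLC and 12.4 on LPHC, and the fold change was 0.21 in edgeR, 0.063 in DESeq2 and 0.27 to 1.62 with 1 library left out. Of 8 listed genes of the antenna and maxillary palp, a10, a5 and lush were also lowest in LPHC replicates 1 and 2, and Orco, Ir8a, Ir25a, Ir76b and antdh were not. These genes were singled out after the values were seen. The antennal protein gene a10 had 105, 187, 234, 104 and 133 on HPLC and 2.09, 16.0, 60.0, 93.3 and 184 on LPHC. Another such gene, a5, had 26.5, 32.1, 25.1, 2.74 and 13.7 on HPLC and 0, 0, 22.3, 26.8 and 63.4 on LPHC. The pheromone carrier lush, an odorant binding protein that its name keeps out of the 34, had 58.9 to 138 on HPLC and 25.4 to 109 on LPHC, lowest in LPHC replicate 2. Orco, the shared subunit of odorant receptors, varied less, at 155 to 184 on HPLC and 163 to 230 on LPHC. Ir25a had 222 to 288 on HPLC and 241 to 357 on LPHC. Of these 8 genes, 1 was called higher (antdh, 1.38 ± 0.11, limma adjusted p = 1.47e-08) and none lower, though 3 were called lower under upper-quartile and quantile scaling. Their sum ran from 1232 to 1640 on HPLC and from 985 to 1361 on LPHC. It averaged 1373 on HPLC and 1124 on LPHC, of which antdh alone made up 407 and 156. Orco, Ir8a, Ir25a, Ir76b and a5 had lower means on HPLC and lush and a10 higher ones, none of them called in the main test. The part of antennal RNA in the values of Obp83a, Obp83b and Obp19a was not tested.

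**Figure D2:**
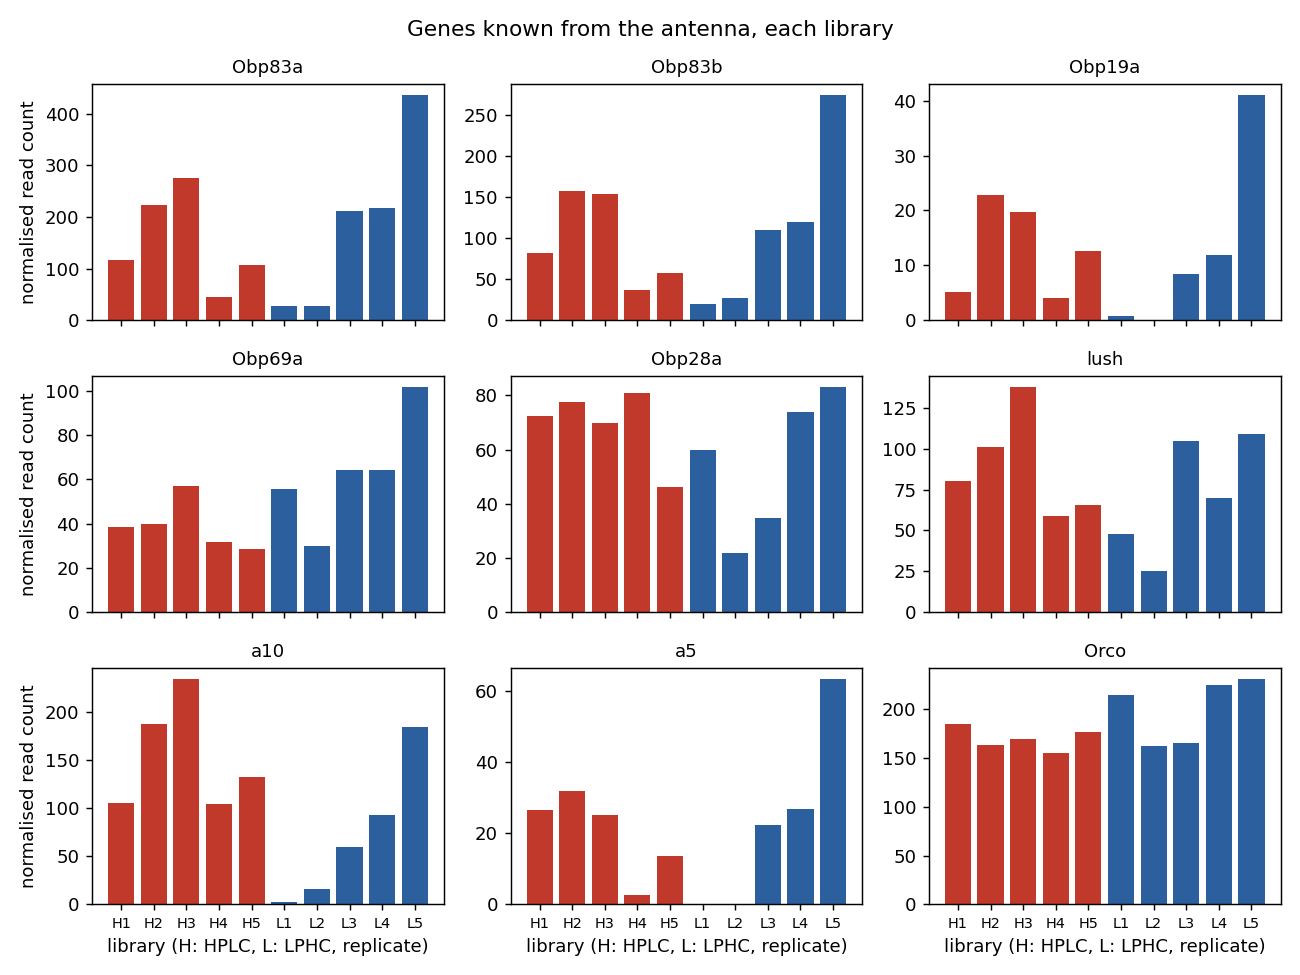
Normalised read counts in each of the 10 libraries, HPLC in red and LPHC in blue, for the members Obp83a, Obp83b, Obp19a, Obp69a and Obp28a and for lush, a10, a5 and Orco, each panel on its own axis from 0. Obp83a, Obp83b, Obp19a and a5 are highest in LPHC replicate 5 and lowest in LPHC replicates 1 and 2, while Orco stays between 155 and 230.

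Obp69a and Obp28a, also antennal carriers, varied less between libraries. Both were nonetheless also highest in LPHC replicate 5, and their lowest LPHC library was replicate 2. Obp69a, whose level in males is known to respond to a sex pheromone, had 38.7, 39.7, 56.8, 31.5 and 28.4 normalised counts on HPLC and 55.6, 29.8, 64.2, 64.3 and 102 on LPHC. Its log2 fold change of −0.62 ± 0.27 missed the threshold (limma adjusted p = 0.0784), and it was called lower without HPLC replicate 3 (−0.76, adjusted p = 0.0284) or LPHC replicate 2 (−0.86, adjusted p = 0.00578), in DESeq2 and under upper-quartile and quantile scaling. Obp28a had 72.4, 77.7, 69.9, 80.8 and 46.3 on HPLC and 59.8, 21.8, 34.9, 74.0 and 83.0 on LPHC, and the groups overlapped (0.47 ± 0.31, limma adjusted p = 0.258).

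The 7 members under the filter on low values had means of at most 9.59, and no library exceeded 17.5. They were Obp50e, Obp56e, Obp56f, Obp59a, Obp73a, Obp84a and Obp99a. Obp56f had 10.5 to 17.5 on HPLC and 1.40 to 9.04 on LPHC, and Obp56e 4.22 to 14.2 on HPLC and 1.87 to 4.87 on LPHC. Obp73a had 6.85 to 17.3 on HPLC and 2.09 to 10.3 on LPHC. Obp84a, at 2.04 to 9.48 on HPLC and 2.79 to 12.5 on LPHC, and Obp50e, at 1.02 to 6.56 on HPLC and 2.80 to 5.81 on LPHC, lay over the same range on both diets. Obp59a, which is needed for the sensing of humidity, had 5.10, 6.76, 8.74, 0 and 5.27 on HPLC and 2.09, 0, 5.58, 9.65 and 13.1 on LPHC, which rest on 0 to 14 reads in a library. Obp56e, Obp59a and Obp84a, like the tested Obp69a and Obp99c, each share some exon sequence with a gene on the opposite strand. Obp73a shares some with Ogdh on the same strand. When no filter was used, 21 of the 34 genes were called higher and 1 lower. Over all 11621 genes, this setting called 2199 higher and 1802 lower. The added members were Obp56e, Obp56f, Obp73a and Obp99a (log2 fold changes from 1.00 to 1.61, limma adjusted p up to 0.0434). Obp56e, Obp56f and Obp73a reached a mean of 10 on HPLC only, and Obp99a on neither diet.

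**Figure D3:**
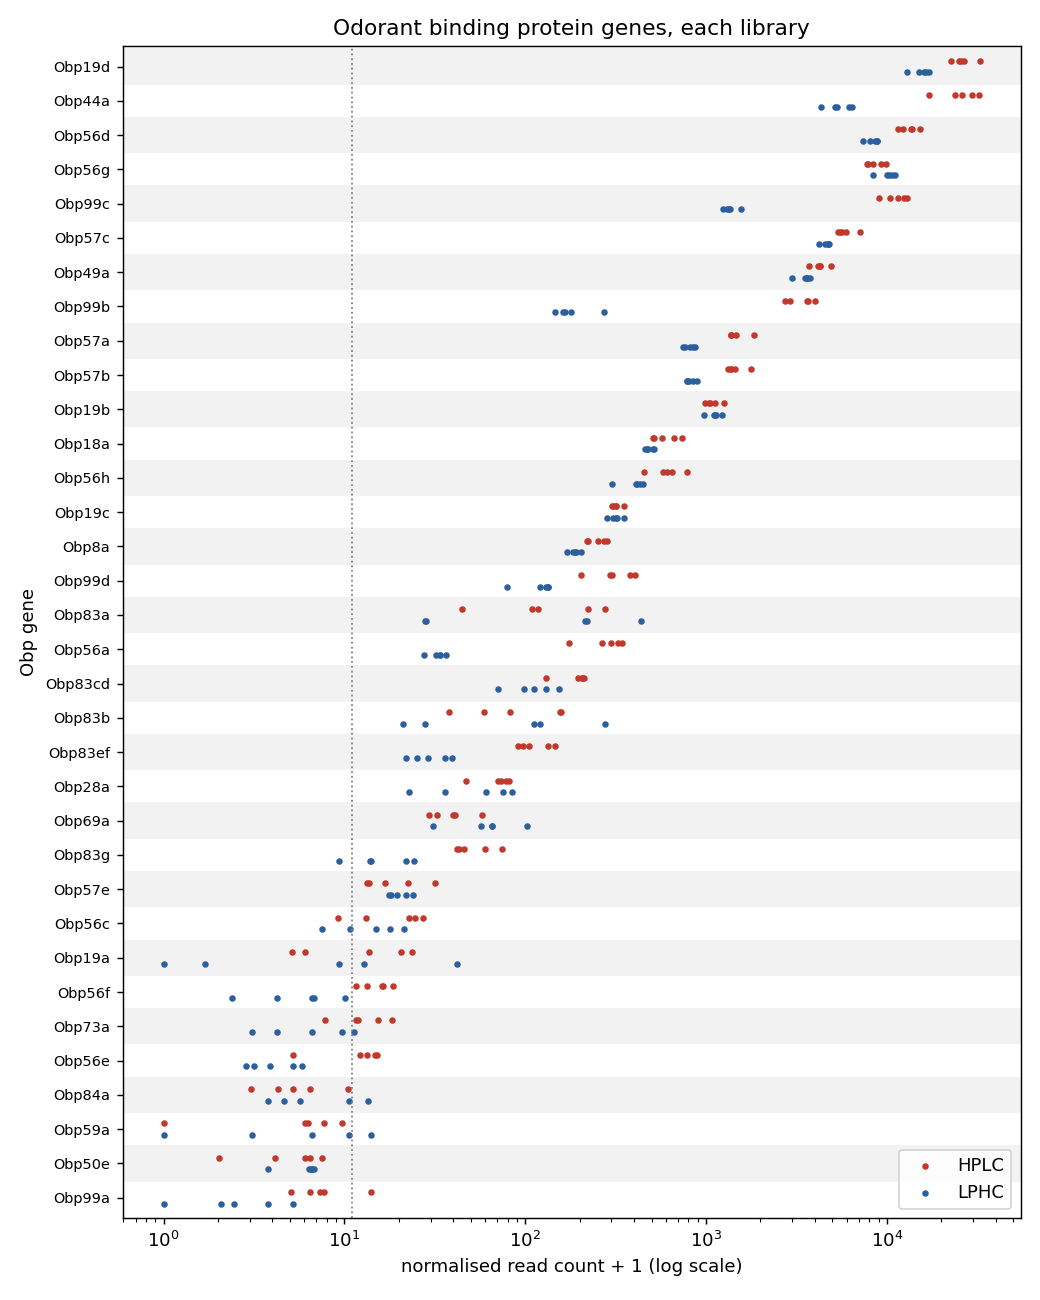
Normalised read count plus 1 (log axis) of the 34 Obp genes in each library, HPLC in red above LPHC in blue, ordered by level. The dotted line marks a count of 10, the minimum mean for the test; Obp99b, Obp99c, Obp56a and Obp44a show the widest gaps between the diets, and among the 27 tested members Obp83a, Obp83b and Obp19a have the widest spread within them.

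Reads of all 34 genes together took 0.312% to 0.435% of a library on HPLC and 0.167% to 0.209% on LPHC. The means were 0.368% ± 0.0442 on HPLC and 0.196% ± 0.0177 on LPHC (SD, n = 5 each), a ratio of 1.88, and the groups did not overlap. The 5 most abundant members (Obp19d, Obp44a, Obp56d, Obp56g and Obp99c) held 80.4% ± 0.877 of these reads on HPLC and 75.5% ± 1.33 on LPHC (SD, n = 5 each). Within them the shares shifted: Obp44a held 24.1% ± 4.00 on HPLC against 10.1% ± 0.837 on LPHC, and Obp99c 10.7% ± 1.66 on HPLC against 2.53% ± 0.155 on LPHC. Obp56g held 8.15% ± 0.672 on HPLC and 18.7% ± 0.588 on LPHC, where only Obp19d took more. Obp19d held 24.9% ± 1.02 on HPLC and 28.7% ± 1.03 on LPHC, and Obp99b 3.19% ± 0.366 on HPLC and 0.342% ± 0.0805 on LPHC. Without Obp44a and Obp19d the ratio between the diets was 1.56, a setting chosen after the data were seen.

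**Figure D4:**
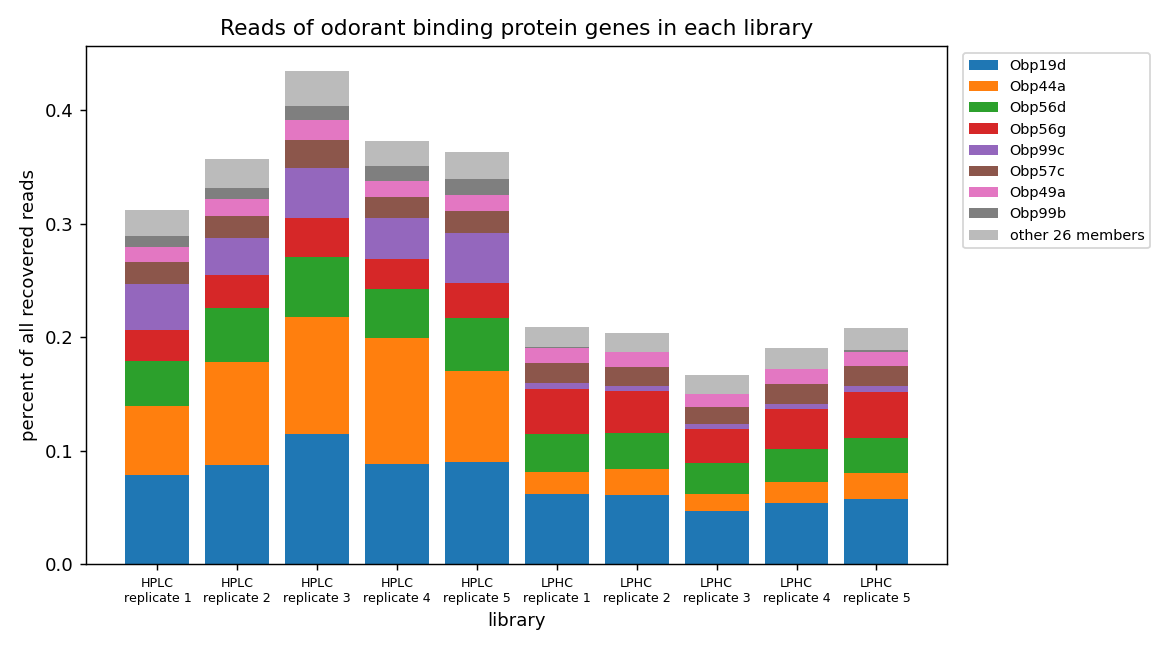
Percent of all recovered reads taken by Obp genes in each library, stacked by gene for 8 members and for the other 26 together. The HPLC bars stand between 0.312% and 0.435% and the LPHC bars between 0.167% and 0.209%, and the segments of Obp44a and Obp99c are taller on HPLC.

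Ranked by mean normalised count among all 11621 genes, Obp19d stood at place 154, Obp44a at 272, Obp56d at 495, Obp56g at 595 and Obp99c at 965. Per kilobase of annotated exon, the members stood in another order on each diet. On HPLC the mean level was 24068 normalised counts per kilobase for Obp19d, 23960 for Obp44a, 17427 for Obp56g, 16858 for Obp99c and 14383 for Obp56d. On LPHC it was 20380 for Obp56g, 14101 for Obp19d, 9034 for Obp56d, 8250 for Obp57c and 5095 for Obp44a. The values of Obp19d and Obp44a on HPLC differed by less than the spread of Obp44a between libraries.

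The members also differed in how much they varied between libraries of a diet. The median SD of log2 values over the tested members was 0.28 on HPLC and 0.18 on LPHC, against 0.13 on HPLC and 0.12 on LPHC over all genes tested. HPLC replicate 3 was the highest HPLC library for 19 of the 27 tested members, and LPHC replicate 3 the lowest LPHC library for 15. Without both of these libraries, a setting added after the data were seen, 16 members were called higher and 1 lower.

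Other small carriers of chemosensory systems rose in part. Of 5 Npc2 genes, a secreted family that binds sterols and other lipids, 3 were called higher and none lower. Npc2g averaged 4901 ± 907 on HPLC and 647 ± 92.3 on LPHC (SD, n = 5 each; log2 fold change 2.91 ± 0.13, limma adjusted p = 8.01e-10), and Npc2h rose by 1.90 ± 0.13 (limma adjusted p = 2.36e-08). Of 4 chemosensory protein genes, the other family of small soluble carriers in insects, EbpIII and Phk-3 were called higher (1.05 ± 0.10 and 1.43 ± 0.07, limma adjusted p = 1.16e-07 and 4.52e-11) and CG30172 lower (−0.25 ± 0.09, limma adjusted p = 0.0483). Under TMM and neuron-marker scaling no gene of this family was called lower.

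Of 54 tested genes of the odorant, ionotropic and gustatory receptor families, 2 were called higher and 9 lower. The share called lower was 16.7%, close to the 18.9% over all genes tested, and the share called higher was 3.7%, against 22.1% over all genes tested. None of 16 tested odorant receptor genes was called higher and 4 were called lower, with a median log2 fold change of −0.29. Of 18 ionotropic receptor genes 2 were called higher and 3 lower (median −0.17). Ir40a, called higher, reached a mean of 10 on HPLC only (14.7, against 5.64 on LPHC). Of 20 gustatory receptor genes none was called higher and 2 were called lower (median −0.24). Gr43a, a fructose receptor, averaged 25.2 ± 4.10 on HPLC and 39.4 ± 4.10 on LPHC (SD, n = 5 each; −0.63 ± 0.17, limma adjusted p = 0.00729). Gr59f and Gr59e, under the filter and picked out after their values were seen, had 10.1 to 17.3 and 5.46 to 16.3 on HPLC, against 0 to 1.45 and 0 to 2.78 on LPHC, and did not overlap. Ir7a, likewise untested, lay the other way, with 2.04 to 4.37 on HPLC and 6.53 to 9.77 on LPHC. Most receptor genes of the table fell under the filter, with 16 of 41, 18 of 42 and 20 of 49 tested in the 3 families. Under neuron-marker scaling, odorant receptors had 1 gene called higher and 2 lower, ionotropic receptors 2 higher and 1 lower, and gustatory receptors 1 lower. Over all 9896 genes tested, neuron-marker scaling called 2550 higher and 227 lower. Under quantile normalization 7, 7 and 8 genes of these families were called lower, beside 3902 of all 9896 genes tested.

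A mixed list of 9 genes, of odorant carriers, odorant clearance, membrane partners and scavenger receptors, was called in both directions. Of these 9 genes, 4 were called higher and 1 lower, with a median log2 fold change of 0.42. Ugt302E1, with the largest rise (3.31 ± 0.40, limma adjusted p = 4.83e-06), reached a mean of 10 on HPLC only (42.0, against 4.35 on LPHC). The carrier lush and the genes Snmp1, Snmp2 and Jhedup were not called. Their log2 fold changes were 0.42, −0.07, −0.09 and 0.21 (limma adjusted p = 0.413, 0.371, 0.258 and 0.799). Est-6, a secreted esterase, averaged 3862 ± 443 on HPLC and 760 ± 133 on LPHC (SD, n = 5 each; 2.35 ± 0.11, limma adjusted p = 5.24e-10). The scavenger receptor genes emp and ninaD rose by 0.84 ± 0.07 and 0.93 ± 0.15 (limma adjusted p = 1.79e-08 and 1.40e-04), and santa-maria, of the same family, fell by 0.20 on the log2 scale (SE 0.07, limma adjusted p = 0.0276). None of the 9 was called lower under neuron-marker scaling, and 3 were under upper-quartile scaling and under quantile normalization.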

How the data were processed

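Per the labels, brain RNA was sequenced in 10 libraries. The deposited values are 1 signal per gene and library, normalised counts that the authors made; the submitters' processing notes name HISAT2. Build, annotation, counting tool and strand use were not given in the sources, and no coordinates are printed. Each value was a whole multiple of 1 constant per library (100% of values, tolerance 1e-06), the reciprocal of a median-of-ratios size factor, so whole reads were recovered. The table lists genes with reads in at least 6 libraries.

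Diets were compared by limma-trend with robust empirical Bayes (two-sided; limma 3.58.1, R 4.3.3) on log2(value + 1), a pseudocount of 1, over genes with a mean of at least 10, with Benjamini-Hochberg adjustment over all of them and a threshold of 0.05. Alternatives were edgeR 4.0.16 (quasi-likelihood) and DESeq2 1.42.0 on recovered reads, other pseudocounts, filters and scalings, a replicate block, and leaving out each library in turn. Gene names match 34 of 34 members in Ensembl release 115, which gave arms, overlaps and exon lengths.

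Named genes were the 8 called members with the largest change, those called lower, the 5 most abundant, the 3 not called with the largest change and 9 fixed for their roles, and up to 4 called genes of each other list. Orco, a5, a10, lush, Pabp2 and repo were added beside results that touch them. The members and lists were chosen with earlier results of these data known. The 3-read level covers counting error only, while SD and SE are over libraries.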

Additional observations from a re-analysis of the deposited data

Results flagged for a closer look

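In 8 of 70 groups of 5 values (34 genes and their summed share of reads on each diet), 1 library stood apart from the rest by more than Dixon's 95% critical value, which chance exceeds in about 1 in 20 groups. On HPLC, replicate 3 was high for Obp57a (1840, next 1473) and Obp57b (1774, next 1449), and replicate 1 was low for Obp83cd (129, next 194). On LPHC, replicate 5 was high for Obp99b (273, next 179) and Obp19a (41.0, next 11.8) and low for Obp50e (2.80, next 5.36). Replicate 3 of LPHC was low for Obp56h (303, next 410) and Obp99d (78.2, next 119). All values are normalised read counts.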

How the results depend on the processing

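The count of Obp genes called higher, 17, ran from 15 (upper-quartile scaling) to 21 (no filter) over the alternatives, and from 16 to 17 when 1 library was left out. The count called lower, 1, was 0 with TMM, with neuron-marker scaling and with the replicate block, and 2 with upper-quartile scaling, quantile normalization and DESeq2. It ran from 0 to 2 when 1 library was left out; the cause was not tested. The replicate numbers did not pair the libraries: deviations of same-numbered libraries correlated between −0.0247 and 0.005 across 9896 genes, and no library correlated best with its own number. The block changed no Obp call but that of Obp56g (−0.23, adjusted p = 0.0698).

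The ratio of the Obp share of reads, 1.88, was 1.56 without Obp44a and Obp19d, and 1.79 to 1.95 when 1 library was left out. Summed normalised counts, another measure, averaged 106265 on HPLC and 53985 on LPHC before further scaling. With neuron-marker scaling the ratio of these sums was 2.17, which is not to be set against the 1.88. Signs turned for members that were not called: Obp19c under upper-quartile scaling (−0.10) and quantile normalization (−0.10), Obp19b (0.12) and Obp57e (0.011) under neuron-marker scaling, and Obp83a and Obp83b in edgeR (−0.20 and −0.11) and DESeq2 (−0.26 and −0.17). With 1 library left out, log2 fold changes ran from −0.08 to 0.012 for Obp19b (−0.13 without replicate 3 of both diets), −0.026 to 0.055 for Obp19c, −0.27 to 0.73 for Obp83a, −0.24 to 0.69 for Obp83b, 0.27 to 1.62 for Obp19a and 0.18 to 0.66 for Obp28a. Those of Obp99b ran from 4.10 to 4.36 and of Obp99c from 2.93 to 3.18 over all alternatives. All genes called lower, 1866, were 3832 with upper-quartile scaling, 3902 with quantile normalization and 227 with neuron-marker scaling, and the median over all genes was −0.14, −0.14 and 0.11.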
